A study of Mus musculus with 26 samples.

Results

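The matrix metalloproteinases (Mmps) and their tissue inhibitors (Timps) were followed at the RNA level through injury of mouse muscle and through differentiation of C2C12 myoblasts. The 10 genes were Mmp2, Mmp3, Mmp8, Mmp9, Mmp12, Mmp14, Mmp19, Timp1, Timp2 and Timp3, taken by gene symbol alone, and all 10 were present among the 53465 rows of the muscle table and the 55487 rows of the cell table. Mmps are zinc-dependent proteases that cut collagens, laminins and other matrix proteins, and most are secreted as inactive proforms. Timps bind the active site of Mmps and block them, but Timp2 has a second role: with membrane-anchored Mmp14 it holds the Mmp2 proform in place for cleavage by a neighbouring Mmp14 molecule. In muscle, this system is known for remodelling the matrix around damaged fibres and for letting myoblasts and inflammatory cells move through it.

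Tibialis anterior (TA) muscle came from C57BL/6J mice, described in the methods of the study as male and 6 weeks old, and was taken on days 0, 1, 3, 5 and 10 after cardiotoxin (CTX), a snake venom toxin that destroys muscle fibres. Day 0 is labelled with the CTX series, while saline is named as the control in the methods, so untouched and saline-injected muscle cannot be told apart for day 0. C2C12, an established mouse skeletal myoblast line, was sampled as control cells (Ctrl) and as Cas9M3 cells. What the Ctrl cells carried is not described. Cas9M3 cells were selected with puromycin and carried a lentiviral dCas9-KRAB repressor guided to the promoter of Mettl3, the m6A methyltransferase. The study's text calls this a knockdown and its series description a knockout. The cell samples are of growth medium (GM) and of day 3 in differentiation medium (DM3), and every group of muscle or cells held 2 libraries. Nothing in the labels says that the 2 libraries came from separate animals or cultures, so the p-values measure only the spread between these samples.

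The libraries held 14170000 to 18820000 reads on genes in muscle and 14230000 to 29570000 in cells, as read from the steps of the deposited FPKM (fragments per kilobase of gene, scaled to library depth), and 1 read on a 1 kb gene was worth 0.0494 to 0.0817 FPKM in muscle and 0.0315 to 0.104 FPKM in cells. Mettl3 stood at 4.68 to 5.65 FPKM in the 4 Ctrl libraries and at 0.0805 to 0.331 FPKM in the 4 Cas9M3 libraries. Xist, the RNA of the inactive X chromosome, stood at 5.77 to 10.0 FPKM in 5 muscle libraries (both of day 0, both of day 10 and the second of day 3) and at no more than 0.152 FPKM in the other 5. The Y-linked Ddx3y ran the other way, from 0.0145 to 0.101 FPKM in the libraries with Xist. In those without Xist it stood at 6.10 to 11.4 FPKM. Sex by these genes thus differs between days and goes against the stated male mice. It also differs between the 2 libraries of day 3, which thus did not come from the same animal. Among the cell libraries, both GM libraries numbered 1 stood apart, with Lcn2 at 99.5 FPKM in Ctrl and 40.8 FPKM in Cas9M3 against 0.0395 and 0.104 FPKM in the GM libraries numbered 2. The second Ctrl GM library also carried the most ribosomal RNA, with Gm23935 at 354482 FPKM. In every cell group Gm23935 was higher in the library numbered 2. It stood at 31998 to 60725 FPKM in those of the other groups, and at 3367 to 5071 FPKM in all libraries numbered 1. Cell libraries numbered 2 also held fewer reads on genes, 14230000 to 18900000 against 25170000 to 29570000. Of the white blood cell markers, Adgre1, S100a9, Cxcr2 and Csf3r were at 0 in all 8 cell libraries, and Csf1r was at most 0.424 FPKM. The 8 macrophage markers summed to 2.70 to 16.1 FPKM in cells, with 4 or 5 of them at 0 in each library, and the 10 neutrophil markers to 0.722 to 9.97 FPKM, with 6 to 9 at 0.

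On the genome (GRCm38), Mmp3 (chromosome 9, 7445822 to 7455975), Mmp8 (chromosome 9, 7558456 to 7568485) and Mmp12 (chromosome 9, 7344381 to 7369499) lie in 1 cluster of metalloproteinase genes on the plus strand. Mmp2 lies on chromosome 8 (92827291 to 92853420), Mmp9 on chromosome 2 (164940780 to 164955850), Mmp14 on chromosome 14 (54431612 to 54445364) and Mmp19 on chromosome 10 (128790910 to 128800824). Timp1 is X-linked (20870166 to 20874735) and lies inside Syn1, while Timp2 is on the minus strand of chromosome 11 (118301069 to 118355740). Timp3 (chromosome 10, 86300372 to 86349506) shares 1733 exonic bases with Syn3 on the opposite strand, Mmp19 shares 789 with Tmem198b, and Mmp12 shares 157 with Mmp1b. Whether the counting used strand is not stated, so reads in these shared bases are uncertain.

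Many Mmp promoters are known for an AP-1 site, bound by Fos and Jun. RefSeq promoter sequence (GRCm38.p6) was at hand for 7 of the 10 genes, and the letters TGANTCA, searched on both strands in the 250 bases before the start, were found in Mmp3 and in 1 of 2 Mmp12 promoters. They occur in 6.75% of 32851 promoters. The 2 matches, in neighbours of the cluster, have the same 7 letters, and their part in the levels in muscle was not tested. Capitals mark the match, which starts 46 bases before the start of Mmp3 and 44 before that of the Mmp12 entry.
Mmp3, chr9:7445756-7445802, plus strand: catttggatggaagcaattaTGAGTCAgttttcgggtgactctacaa
Mmp12, chr9:7347310-7347356, plus strand: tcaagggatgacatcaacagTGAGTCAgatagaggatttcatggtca
Mmp2, Mmp9 and Mmp19 are named only, and a match of letters is no measure of binding.

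The first question was how injury and repair changed these genes. Differences were tested with limma on log2(FPKM + 0.1), with all 5 days in 1 fit and adjustment over all 16753 genes tested, and 0.05 was the highest adjusted p at which a gene was called. At day 1, 1 of the 10 genes was called higher than at day 0 and none lower, against 3.53% of all genes tested higher and 2.47% lower. At day 3, 5 of 10 were called higher and none lower, against 24.5% and 24.3% of all genes. At day 5, 5 of 10 were higher and none lower, against 12.9% and 12.5%, and none of these calls was kept without the first day 0 library or without the second day 5 library. At day 10, none was called by limma, against 0.00597% higher and 0% lower, and an unadjusted p under 0.05 was found for 3 of the 10 members and for 10.1% of all genes. The median log2 difference over the 10 genes from day 0 was 1.07 at day 1, 1.94 at day 3, 1.83 at day 5 and 0.84 at day 10, while the median of all genes tested was at or within 0.0075 of 0 on these days. The smallest two-sided p of an exact permutation test in this design is 0.333, so each p rests on the limma fit.

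**Figure D1:**
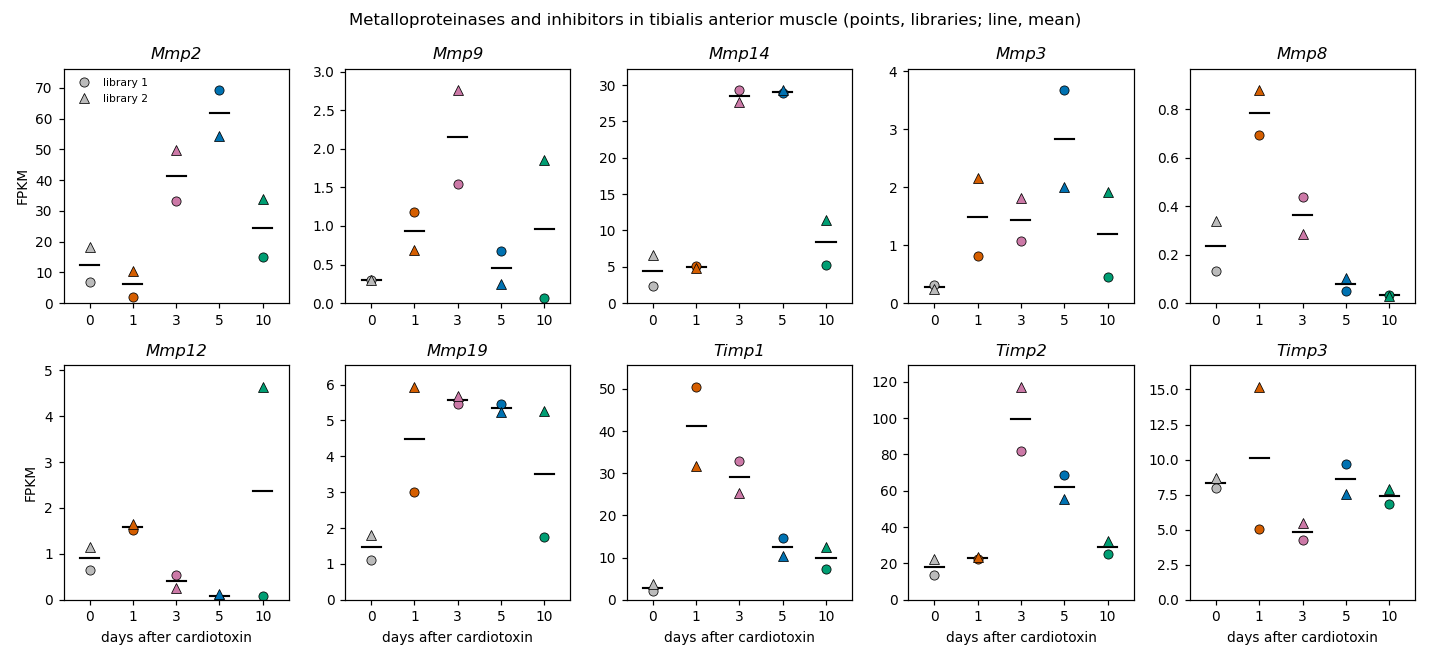
FPKM (linear axes from 0, a scale for each gene) of the 10 genes in each TA library by days after CTX; circles are libraries numbered 1, triangles those numbered 2 and black lines the mean of 2. Timp1 was highest at day 1 (50.6 and 31.7 FPKM), Timp2 at day 3 (81.7 and 117 FPKM), and Mmp14 stood at 27.6 to 29.4 FPKM in all libraries of days 3 and 5.

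Mmp14, the membrane-anchored collagenase, went from a low to a high level between days 1 and 3. It stood at 2.29 and 6.62 FPKM at day 0, 5.11 and 4.76 at day 1, 29.3 and 27.6 at day 3, 28.9 and 29.4 at day 5, and 5.25 and 11.5 at day 10. The day 3 and day 5 libraries lay within 1 narrow band, far above every other library, and the libraries of days 0, 1 and 10 overlapped. The mean at day 3 was 6.39 times that at day 0, a log2 difference of 2.83 ± 0.49 (SE, n = 2 and 2; adjusted p = 0.00275), and at day 5 the log2 difference from day 0 was 2.87 (adjusted p = 0.0130). Mmp14 rose by 2.50 on the log2 scale from day 1 to day 3 (adjusted p = 0.00946) and fell by 1.86 from day 3 to day 10 (adjusted p = 0.0206). The difference of day 3 from day 0 was called under all 20 alternative settings, while that of day 5 was lost without the first day 0 library (adjusted p = 0.0711), without either day 5 library (adjusted p = 0.0523 and 0.0915) and with only those days in the fit (adjusted p = 0.0572).

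Timp2, the inhibitor that works with Mmp14 on the Mmp2 proform, was the most abundant Timp in 8 of the 10 muscle libraries. Its level was 13.5 and 22.6 FPKM at day 0, 22.2 and 23.8 at day 1, 81.7 and 117 at day 3, 68.6 and 55.6 at day 5, and 25.3 and 32.5 at day 10. Day 3 was highest, day 5 next, and both stood clear of the other days. Timp2 rose by 2.48 ± 0.28 on the log2 scale from day 0 to day 3 (SE; adjusted p = 0.000557), 5.53 times in the means, and by 1.82 to day 5 (adjusted p = 0.0114). Between days 1 and 3 the rise was 2.09 (adjusted p = 0.00347), and from day 3 to day 10 Timp2 fell by 1.77 (adjusted p = 0.00299). The difference of -0.66 from day 3 to day 5 was not called (adjusted p = 0.164).

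Mmp2, a gelatinase that cuts type IV collagen of basement membranes, reached the highest FPKM of the 7 Mmps in 9 of 10 muscle libraries. It stood at 6.79 and 18.1 FPKM at day 0, 2.07 and 10.6 at day 1, 33.1 and 49.8 at day 3, 69.4 and 54.4 at day 5, and 15.1 and 33.7 at day 10. The 2 libraries of days 0, 1 and 10 differed by more than 2 times from each other, and the day 5 libraries were the highest of all. From day 1 to day 3 Mmp2 rose by 3.08 ± 0.78 on the log2 scale (SE; adjusted p = 0.0220). That call held in 15 of 20 alternative settings, over which the log2 difference ran from 1.93 to 4.23. The difference of Mmp2 from day 0 missed the threshold at day 3 (1.86, adjusted p = 0.0812) and at day 5 (2.46, adjusted p = 0.0529). In the same libraries the summed FPKM of 8 fibroblast and fibroadipogenic progenitor markers (Dcn, Pdgfra and Col1a1 among them, none at 0 in any library) ran from 61.7 to 214 on days 0 and 1, from 685 to 992 on days 3 and 5, and from 186 to 460 at day 10. At day 3, Col1a1 stood at 350 and 354 FPKM and Col3a1 at 238 and 284, beside Dcn at 25.8 and 46.4. Dcn stood at 34.0 FPKM in the second day 1 library, so the markers did not all rise alike. In bulk muscle, more cells of a type and more RNA per cell cannot be told apart, and the part of these markers in the result was not tested.

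Timp1, an inducible inhibitor with growth factor-like actions, was the only one of the 10 called at day 1. Its level was 2.08 and 3.63 FPKM at day 0, 50.6 and 31.7 at day 1, 32.8 and 25.4 at day 3, 14.7 and 10.3 at day 5, and 7.36 and 12.6 at day 10. Every library after injury exceeded both day 0 libraries, with the highest values at day 1. The day 1 mean was 14.4 times the day 0 mean, a log2 difference of 3.82 ± 0.38 (SE; adjusted p = 0.00969), followed by 3.35 at day 3 (adjusted p = 0.000558) and 2.12 at day 5 (adjusted p = 0.0141). At day 10 the difference was 1.77 with a 95% interval of 0.89 to 2.65, but it was not called (adjusted p = 0.339), while the step from day 3 to day 10 fell by 1.58 (adjusted p = 0.0147). The day 1 call was lost without the first library of day 0 (adjusted p = 0.0865) or of day 1 (adjusted p = 0.0708), and with only those 2 days in the fit (adjusted p = 0.146).

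Timp3, the inhibitor that stays bound to the matrix, was called in none of the 7 comparisons between days. Its level was 7.98 and 8.67 FPKM at day 0, 5.02 and 15.2 at day 1, 4.23 and 5.47 at day 3, 9.71 and 7.55 at day 5, and 6.83 and 7.92 at day 10. Both day 3 libraries lay below both day 0 libraries, with a log2 difference of -0.78 and a 95% interval of -1.80 to 0.25 (adjusted p = 0.183). With only days 0 and 3 in the fit this difference of Timp3 was called (adjusted p = 0.0345), as was the higher Mmp9 level at day 3 (adjusted p = 0.0150). The gene whose levels were most like those of Timp3 over the 10 libraries was Syn3 (Pearson r = 0.988), a synapsin gene that shares exonic bases with it, and their reads cannot be told apart there.

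Mmp19, a protease of basement membrane proteins, stood at 1.11 and 1.80 FPKM at day 0, 3.004 and 5.95 at day 1, 5.46 and 5.69 at day 3, 5.45 and 5.22 at day 5, and 1.76 and 5.27 at day 10. Days 3 and 5 had nearly equal libraries above both of day 0. Mmp19 rose by 1.90 ± 0.51 on the log2 scale to day 3 (SE; adjusted p = 0.0166) and by 1.84 to day 5 (adjusted p = 0.0358). Mmp3, a stromelysin that cuts proteoglycans and activates other Mmps, was low throughout, with 0.312 and 0.249 FPKM (7 and 6 reads) at day 0 and 0.814 and 2.16 at day 1. It stood at 1.07 and 1.81 FPKM at day 3, 3.68 and 2.00 at day 5, and 0.453 and 1.93 at day 10, so that every later library was above day 0. The log2 difference from day 0 was 1.98 ± 0.67 at day 3 (SE; adjusted p = 0.0416) and 2.89 at day 5 (adjusted p = 0.0227), and the day 3 call held in 9 of 20 alternative settings.

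The 3 Mmps best known from white blood cells stayed at low levels, and none was called against day 0. Mmp9, the second gelatinase, was at 0.295 and 0.296 FPKM at day 0, 1.18 and 0.688 at day 1, 1.55 and 2.77 at day 3, 0.676 and 0.244 at day 5, and 0.0692 and 1.85 at day 10. The highest value was in the second day 3 library, with a log2 difference of 2.46 from day 0 (adjusted p = 0.0784), and the 2 day 10 libraries differed widely, the first being the lowest of all 10. Mmp12, the macrophage elastase, was at 0.643 and 1.16 FPKM at day 0, 1.51 and 1.65 at day 1, 0.546 and 0.266 at day 3, 0.0254 and 0.133 at day 5, and 0.0790 and 4.65 at day 10. The second day 10 library thus held both the highest Mmp12 and the second highest Mmp9 value, which the first day 10 library did not share. Mmp8, the neutrophil collagenase, was at 0.132 and 0.340 FPKM at day 0, 0.691 and 0.879 at day 1, 0.439 and 0.285 at day 3, 0.0506 and 0.105 at day 5, and 0.0337 and 0.0311 at day 10. Only the day 1 libraries, with 24 and 28 reads, reached the minimum of 0.5 FPKM, and the day 10 libraries held 1 read each. Mmp8 was lower at day 10 than at day 3 by this fit (log2 difference -1.78, adjusted p = 0.0230), a comparison that rests on 21 and 14 reads at day 3.

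The summed macrophage and neutrophil markers were highest on different days in these libraries. The summed FPKM of 8 macrophage markers ran from 20.05 to 37.6 at day 0, 115 to 124 at day 1, 538 to 567 at day 3, 189 to 241 at day 5 and 35.8 to 98.5 at day 10, with none at 0. The 10 neutrophil markers summed to 2.23 to 6.16 FPKM at day 0, 10.9 to 20.03 at day 1 and 7.21 to 8.37 at day 3. At day 5 they summed to 2.52 to 2.93 and at day 10 to 1.09 to 1.72. Single neutrophil markers differed: S100a9 was highest at day 1 (10.0 and 4.23 FPKM). Csf3r was higher at day 3 (5.69 and 6.70 FPKM) than at day 1 (3.44 and 3.10). Ly6g was at 0 in 8 of 10 libraries. Myoblast and myocyte markers summed to 33.6 to 37.0 FPKM at day 0 and 942 to 1372 FPKM at day 3. The part of these markers in the levels of Mmps and Timps was not tested.

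**Figure D2:**
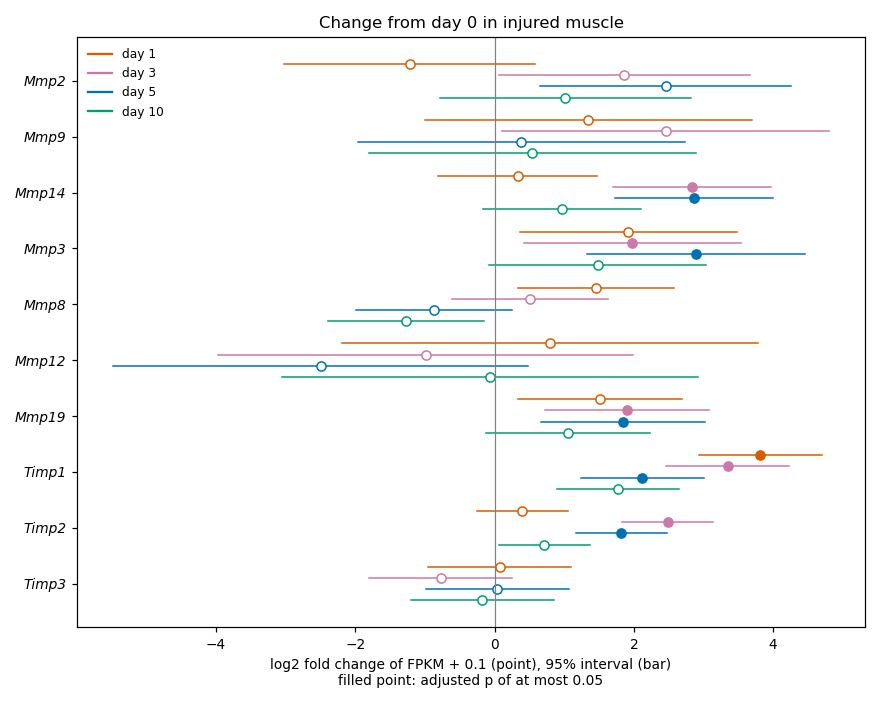
Log2 fold change of FPKM + 0.1 from day 0 (points) with 95% intervals (bars) for the 10 genes on days 1, 3, 5 and 10; filled points had an adjusted p of at most 0.05 in limma. The filled points were Timp1 at day 1, and Mmp3, Mmp14, Mmp19, Timp1 and Timp2 on both day 3 and day 5.

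Against day 1, day 3 was called higher for 3 of the 10 genes (Mmp2, Mmp14 and Timp2) and lower for none, with 14.5% of all genes higher and 16.6% lower. Day 5 against day 3 gave no called member by limma and 3 of 10 at an unadjusted p under 0.05, all lower, as against 29.4% of all genes at that p in either direction. By adjusted p, 7.23% of all genes were higher and 5.46% lower. Day 10 against day 3 gave 4 lower members (Mmp8, Mmp14, Timp1 and Timp2) and no higher one, against 19.1% of genes higher and 18.8% lower. These comparisons share the libraries of days 0 and 3 and are not independent of each other.

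Because Xist-expressing libraries were unevenly spread over days, the differences were also read within these libraries. Within them, the single day 3 library exceeded the day 0 mean by 2.79 for Mmp14, 2.74 for Timp2, 3.16 for Timp1, 2.16 for Mmp2, 2.33 for Mmp3 and 1.93 for Mmp19 on the log2 scale, a comparison with 1 library at day 3 and so without a test. With a term for Xist-expressing libraries, day 3 against day 0 was still called for Mmp14 (adjusted p = 0.0207), Timp1 (adjusted p = 0.00622) and Timp2 (adjusted p = 0.00357), but not for Mmp3 (adjusted p = 0.0790) or Mmp19 (adjusted p = 0.0678). For days 1 and 5, whose libraries all lacked Xist, only the 2 day 3 libraries link the classes, and no member was called against day 0. The log2 difference of Timp1 at day 1 was then 3.45 (adjusted p = 0.396), and it was at least 3.43 under all 20 alternative settings. The 2 day 3 libraries, 1 with Xist and 1 without, differed by -0.37 for Timp1, with the Xist library lower.

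The balance between Timps and Mmps was described by summed FPKM, which is per length and so can be added across genes. The 3 Timps summed to 2.03 and 1.22 times the 7 Mmps at day 0, 5.40 and 2.65 times at day 1, 1.66 and 1.68 times at day 3, 0.860 and 0.803 times at day 5, and 1.74 and 0.899 times at day 10. For these 10 genes, both day 1 libraries lay above every other library, and both day 5 libraries lay below all others. Mmp11, which is not among the 7, stood at 151 and 120 FPKM at day 0, above the sum of the 7 there (11.6 and 28.6 FPKM). It stood at 34.2 and 26.9 FPKM at day 3. The ratios and their order by day thus describe the chosen genes alone. Timp1 made up 65.0% and 44.8% of the Timp sum at day 1, against 8.84% and 10.4% at day 0, while Timp2 made up 68.8% and 79.2% at day 3. Mmp2 and Mmp14 together took 49.9% and 57.5% of the Mmp sum at day 1 and 76.7% to 91.6% on the other days. These are RNA levels, and protease activity was not measured.

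**Figure D3:**
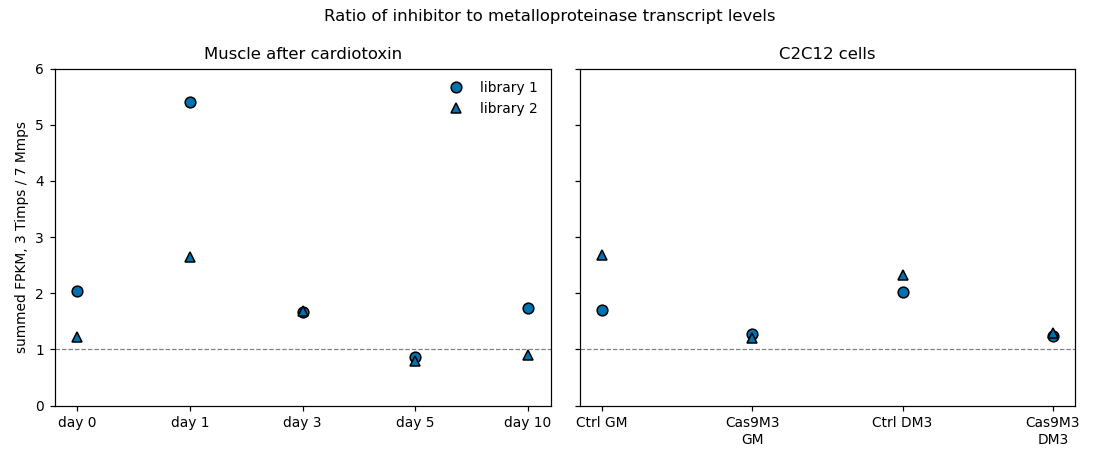
Ratio of the summed FPKM of Timp1, Timp2 and Timp3 to that of the 7 Mmps (linear axis from 0) in each muscle library by day and in each C2C12 library by group; circles and triangles are libraries numbered 1 and 2, and the dashed line marks equal sums. Both day 5 libraries were under the line (0.860 and 0.803), and the Cas9M3 cells (1.20 to 1.30) lay below the Ctrl cells (1.70 to 2.69). Mmp11 and other Mmps outside the 7 are not in the sums.

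Other proteases and regulators of the system were counted over fixed lists. At day 3 against day 0, 3 of 7 tested other Mmps were higher and 2 lower (list median 0.85 on the log2 scale), beside 24.5% of all genes higher and 24.3% lower in this comparison. The share lower was thus near that of all genes. Mmp13, a collagenase, rose by 3.74 from 0.274 to 4.88 FPKM in the means (adjusted p = 0.00938) and Mmp23 by 2.90 (adjusted p = 0.00615), while Mmp11, a stromelysin cut to its active form by furin, fell by 2.15 from 135 to 30.5 FPKM (adjusted p = 0.000394). Mmp24 fell by 0.87 (adjusted p = 0.0290). Among other inhibitors, Tfpi2 rose by 2.66 (adjusted p = 0.0258) and Serpine2 fell by 1.16 (adjusted p = 0.0332).

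Activators and partners were higher for 7 of 9 tested genes and lower for 1 at day 3 (list median 1.74), led by the hyaluronan receptor Cd44 (2.63, adjusted p = 0.00190), the urokinase receptor Plaur (2.40, adjusted p = 0.0125) and the scavenger receptor Lrp1 (2.40, adjusted p = 0.00215). Bsg, known as an inducer of Mmps, was lower by 0.97 (adjusted p = 0.0181). The ADAM and ADAMTS proteases, relatives of the Mmps, had 9 of 15 higher and 1 lower (list median 0.97), beside the same 24.5% and 24.3% of all genes. Adam12 rose by 3.83 (adjusted p = 0.00128), Adam8 by 3.31 (adjusted p = 0.000491) and Adamts4 by 3.01 (adjusted p = 0.00299), and Adamts8 fell by 2.56 (adjusted p = 0.0487).

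At day 1, the activators and partners had 6 of 9 higher and none lower, beside 3.53% and 2.47% of all genes, among them Lcn2, which binds Mmp9 (3.57, adjusted p = 0.0200), Cd44 (2.61, adjusted p = 0.0246) and Plaur (2.59, adjusted p = 0.0482). The other Mmps had 0 of 7 called at day 1 by limma and 3 at an unadjusted p under 0.05 (26.8% of all genes), and the ADAM and ADAMTS list only Adam8 (3.08, adjusted p = 0.0149). With only days 0 and 1 in the fit, or with the term for Xist-expressing libraries, 0 of all genes were called at day 1, so that every one of these calls was lost, and without the first library of day 0 or of day 1 only 9 or 13 of all genes were called. At day 5, 2 other Mmps were higher (Mmp13 and Mmp23) and 1 lower (Mmp11), and 8 of 15 ADAM and ADAMTS genes were higher and 1 lower, beside 12.9% and 12.5% of all genes. The 2 day 5 libraries of Mmp13 lay far apart, at 12.4 and 1.25 FPKM. None of the 36 tested genes of the 4 lists was called by limma at day 10 against day 0, and 5 had an unadjusted p under 0.05, as did 10.1% of all genes. From day 3 to day 10, 7 of 9 activators and partners were lower and 1 higher, beside 18.8% of all genes lower and 19.1% higher, and Mmp11 rose again by 1.56 (adjusted p = 0.00157).

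The second question was how the same genes behaved in a single cell type, as C2C12 cells left growth medium, and what repression of Mettl3 went with. Against 13824 genes tested, no member was called by limma in any of the 5 cell comparisons; Mmp9 (at most 0.196 FPKM) and Mmp12 (0 in all 8 libraries) were under the filter and not tested. For Ctrl DM3 against Ctrl GM, 0.767% of genes were higher and 0.376% lower, and an unadjusted p under 0.05 was found for 1 of 8 members and 18.2% of all genes. For Cas9M3 DM3 against Cas9M3 GM, 0.0145% were called in each direction, with 1 of 8 members and 12.6% of all genes at an unadjusted p under 0.05. For Cas9M3 against Ctrl, 0% were higher and 0% lower in GM, with 3 of 8 members and 9% of all genes at an unadjusted p under 0.05. In DM3, 1.29% were higher and 0.687% lower, with 4 of 8 members, all higher, and 17.6% of all genes at an unadjusted p under 0.05. For the difference of the Cas9M3 effect between DM3 and GM, 0% of genes were called in either direction, with 1 of 8 members and 8.67% of all genes at an unadjusted p under 0.05. The GM libraries differed strongly within their groups and share 1 estimate of spread with DM3 in this fit.

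**Figure D4:**
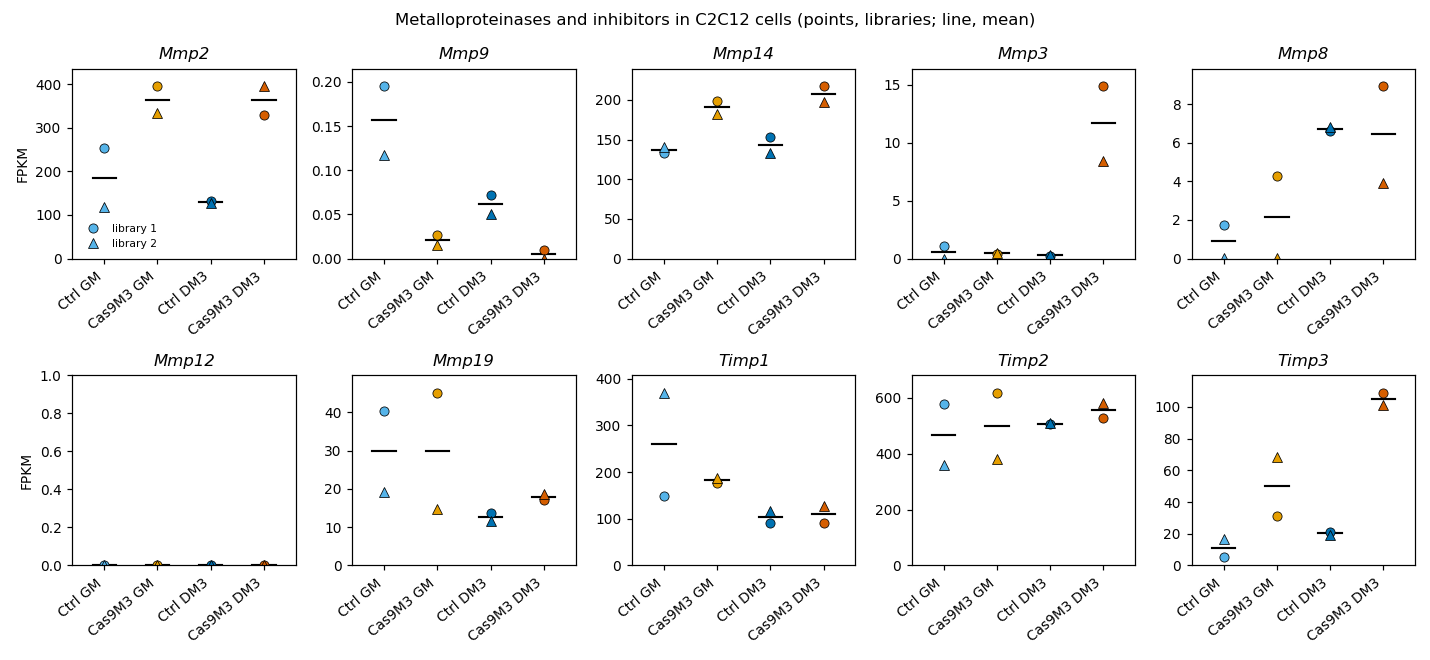
FPKM (linear axes from 0, a scale for each gene) of the 10 genes in each C2C12 library of Ctrl and Cas9M3 cells in GM and DM3; circles are libraries numbered 1, triangles those numbered 2 and black lines the mean of 2. Mmp2, Mmp3 and Timp3 were higher in both Cas9M3 DM3 libraries than in both Ctrl DM3 libraries, and Mmp12 was at 0 throughout.

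Mmp2 and Mmp14 dominated the Mmps of C2C12 cells, with 89.9% to 97.1% of the Mmp sum. Mmp2 stood at 253 and 117 FPKM in Ctrl GM, 395 and 333 in Cas9M3 GM, 133 and 127 in Ctrl DM3, and 329 and 396 in Cas9M3 DM3. Every Cas9M3 library was above every Ctrl library. The log2 difference of Cas9M3 from Ctrl was 1.07 in GM (95% interval 0.16 to 1.99, adjusted p = 0.514) and 1.48 in DM3 (0.56 to 2.40, adjusted p = 0.113). Mmp14 stood at 133 and 141 FPKM in Ctrl GM, 199 and 182 in Cas9M3 GM, 153 and 133 in Ctrl DM3, and 218 and 197 in Cas9M3 DM3. Here too the Cas9M3 libraries lay above all Ctrl libraries. The log2 difference was 0.47 in GM (adjusted p = 0.552) and 0.54 in DM3 (adjusted p = 0.220). From GM to DM3 Mmp14 differed by little, by 0.06 in Ctrl (95% interval -0.41 to 0.53) and 0.12 in Cas9M3 (-0.35 to 0.59).

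Timp3 had the widest gap between Ctrl and Cas9M3 among the Timps. It stood at 5.53 and 17.0 FPKM in Ctrl GM, 31.3 and 68.5 in Cas9M3 GM, 21.1 and 19.2 in Ctrl DM3, and 109 and 101 in Cas9M3 DM3. All Cas9M3 libraries were above all Ctrl libraries. In Ctrl and in Cas9M3, both DM3 libraries were above both GM libraries. The mean of Cas9M3 was 4.44 times that of Ctrl in GM (log2 difference 2.24, adjusted p = 0.382) and 5.21 times in DM3 (2.38 ± 0.57 SE, adjusted p = 0.1002). Paired by library number, the DM3 difference was 2.36 and 2.39. Reads in the exonic bases that Timp3 shares with Syn3 are uncertain in these cells too, and their part in this gap was not tested.

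Mmp3 was low outside Cas9M3 DM3. It stood at 1.12 and 0 FPKM (64 and 0 reads) in Ctrl GM, 0.387 and 0.514 (22 and 17 reads) in Cas9M3 GM, 0.223 and 0.334 (11 and 10 reads) in Ctrl DM3, and 14.9 and 8.47 (749 and 224 reads) in Cas9M3 DM3. The Cas9M3 DM3 libraries stood clear of the other 6, with a mean 42.0 times that of Ctrl DM3 and a log2 difference of 4.92 ± 1.08 (SE; adjusted p = 0.0821). From GM to DM3, Mmp3 differed by 4.37 in Cas9M3 (adjusted p = 0.166) and by 0.10 in Ctrl (adjusted p = 0.966), and the difference between these, 4.27 with a 95% interval of 0.57 to 7.98, was not called (adjusted p = 0.519) and ran from 2.30 to 6.24 over the alternative settings. The 0.10 in Ctrl averages opposite changes of Mmp3, -1.92 between the libraries numbered 1 and 2.12 between those numbered 2. Mmp8 stood at 1.75 and 0.0427 FPKM in Ctrl GM, 4.27 and 0.0225 in Cas9M3 GM, 6.60 and 6.84 in Ctrl DM3, and 8.95 and 3.93 in Cas9M3 DM3. In GM it was high in the libraries numbered 1 and at 1 read in those numbered 2, the same split as Lcn2.

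With only the 4 DM3 libraries in the fit, 3 members were called higher in Cas9M3 than in Ctrl, against 19.1% of all genes called in either direction. These were Mmp2 (adjusted p = 0.00935), Mmp3 (adjusted p = 0.00398) and Timp3 (adjusted p = 0.00212), with the same log2 differences as above. With all 8 libraries in the fit, 1 member was called with a pseudocount of 1. None was called with a pseudocount of 0.01, other filters, quantile normalization or a replicate block. Without any 1 of the DM3 libraries, none was. Myoblast and myocyte markers moved with the same comparison: their summed FPKM was 349 to 383 in Ctrl DM3 and 21.1 to 24.3 in Cas9M3 DM3, with Myog at 89.1 and 83.3 against 3.50 and 2.28 FPKM. The neutrophil markers summed to 0.722 to 1.59 FPKM in Ctrl DM3 and 5.75 to 5.90 FPKM in Cas9M3 DM3. In each of these 4 libraries only 1 of the 10 neutrophil markers reached 0.5 FPKM, and 6 to 9 were at 0. The part of these markers and of the state of differentiation in the Mmp and Timp levels was not tested.

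**Figure D5:**
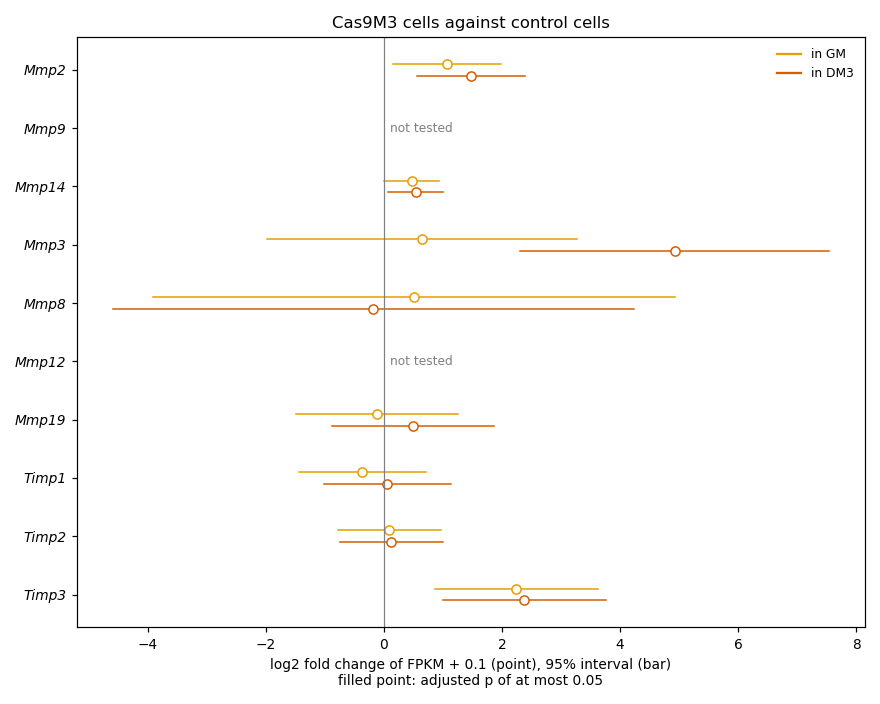
Log2 fold change of FPKM + 0.1 between Cas9M3 and Ctrl cells in GM and in DM3 (points) with 95% intervals (bars) from the fit of all 8 libraries; no point is filled, since no adjusted p was 0.05 or lower, and Mmp9 and Mmp12 were not tested. The intervals of Mmp2, Mmp14 and Timp3 lay above 0 in both media, and that of Mmp3 in DM3.

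The remaining members were not higher in every Cas9M3 library than in every Ctrl library. How many of all genes separate these libraries was not counted. The separation of Mmp2, Mmp14 and Timp3 thus has no share of all genes beside it. Timp2 was the most abundant member in 7 of the 8 cell libraries and stood at 578 and 359 FPKM in Ctrl GM, 618 and 380 in Cas9M3 GM, 506 and 510 in Ctrl DM3, and 528 and 580 in Cas9M3 DM3. Its log2 difference of Cas9M3 from Ctrl in DM3 was 0.13 with a 95% interval of -0.75 to 1.00 (adjusted p = 0.921). Timp1 stood at 149 and 370 FPKM in Ctrl GM, 177 and 188 in Cas9M3 GM, 91.0 and 118 in Ctrl DM3, and 90.7 and 128 in Cas9M3 DM3. Both DM3 groups lay below both GM groups, by 1.18 in Ctrl (adjusted p = 0.243) and 0.76 in Cas9M3 (adjusted p = 0.596) on the log2 scale, neither of them called. Mmp19 stood at 40.4 and 19.1 FPKM in Ctrl GM, 45.1 and 14.6 in Cas9M3 GM, 13.7 and 11.6 in Ctrl DM3, and 17.0 and 18.7 in Cas9M3 DM3. Its GM libraries numbered 1 were more than 2 times as high as those numbered 2 in Ctrl and in Cas9M3. The Timp sum was 1.70 to 2.69 times the Mmp sum in Ctrl and 1.20 to 1.30 times in Cas9M3.

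Of the listed relatives in cells, 5 other Mmps, 4 other inhibitors, 9 activators and partners and 13 ADAM and ADAMTS genes were tested. In Ctrl cells Adamts4, an aggrecanase, rose from 2.56 FPKM in GM to 19.2 in DM3 (log2 difference 2.86, adjusted p = 0.0223), and in DM3 it was lower in Cas9M3, at 1.60 FPKM (-3.49, adjusted p = 0.0187). Serpine2, an inhibitor of plasminogen activators, was higher in Cas9M3 DM3 than in Ctrl DM3, at 62.0 against 10.5 FPKM (2.55, adjusted p = 0.0496). No other listed relative was called by limma in the 5 cell comparisons, where 3 to 9 of the 31 had an unadjusted p under 0.05, beside 8.67% to 18.2% of all genes. Without any 1 DM3 library 0 of all genes were called in DM3 against GM of Ctrl or in Cas9M3 against Ctrl in DM3, so the calls of Adamts4 and Serpine2 were lost, as was that of Adamts4 in Ctrl with only the Ctrl groups in the fit.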

How the data were processed

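RNA was extracted with TRIzol and libraries were made with a SMARTER mRNA-Seq kit. HISAT2 (alignment to GRCm38), featureCounts (counting) and the fpkm function of DESeq2 were used by the authors, who deposited FPKM, in 1 table for muscle and 1 for Ctrl and Cas9M3 cells. Strand setting and tool versions are not given in the sources used here. The tables were scaled separately and are compared only within themselves. Median-ratio size factors computed from the deposited FPKM were equal in all libraries of a table (1.008 in muscle, 1.002 in cells), so the FPKM already carry that scaling.

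A gene was tested where 2 or more libraries of its table reached 0.5 FPKM (16753 and 13824 genes). Values of log2(FPKM + 0.1) were fitted with limma 3.58.1 (lmFit, eBayes with trend) in R 4.3.3, all groups of a table in 1 fit, with Benjamini-Hochberg adjustment over the genes tested. Fold changes on this scale understate those of low genes. Reads per library and gene were recovered from the steps of the FPKM with GENCODE M21 gene lengths (53360 of 53465 and 55227 of 55487 identifiers matched); 97.0% to 98.9% of low values lay within 0.05 of a whole read. Other steps used Python 3.11.15, pandas 2.3.3, numpy 2.4.6 and matplotlib 3.10.9.

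The members and gene lists were chosen with earlier results of these data known. All 10 members are named; of other lists at most 3 genes per direction are named, the called genes of largest change whose higher group mean reached 1 FPKM. Genes most like a member are the 2 with the highest Pearson correlation over the libraries of a table. Lcn2 in cells, Gm23935, Ddx3y and Myog were named after their values were seen.

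Deviations from group means were correlated between libraries of the same number in different groups. In cells all 6 correlations were above 0.1 (0.278 to 0.680), so the numbers pair libraries there by the data, with no reason stated; in muscle 2 of 10 were. Alternatives were pseudocounts of 1 and 0.01, other filters, median-ratio and quantile scaling, only the groups compared, a replicate block, the study's fold threshold, a term for Xist-expressing libraries and each library left out; leaving out a pair of GM libraries was chosen after seeing the data. The Mettl3 overexpression libraries were not analysed here. One listed gene, and the counts of its list in muscle at days 1 to 5, are not reported here.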

Additional observations from a re-analysis of the deposited data

How the results depend on the processing

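Counts of called members were recomputed under each alternative, and no called change reversed. With only the groups compared in the fit, 0 members were called at day 1 and 2 at day 5 against day 0, beside 0% and 8% of all genes. It gave 1 at day 5 against day 3 and 3 for Cas9M3 against Ctrl in DM3, beside 17.7% and 19.1%. With a term for Xist-expressing libraries the counts against day 0 were 0 at day 1, 3 at day 3 and 0 at day 5. The shares of all genes were 0%, 34.9% and 0%. There was 1 at day 3 against day 1 and 1 at day 10 against day 3, beside 8.17% and 23.4%. With a log2 change of at least 2 also required, the counts were 3 at day 3 and 3 at day 5 against day 0. The count was 0 at day 10 against day 3. The shares of all genes in these comparisons were 13.3%, 5.17% and 8.28%. Quantile normalization gave 2 at day 5 against day 3, beside 18.3% of all genes. It moved the median of all genes at day 3 against day 0 by -0.123 on the log2 scale, to -0.116. A pseudocount of 1 gave 1 for Cas9M3 DM3 against GM and 1 for Cas9M3 against Ctrl in DM3, beside 0.68% and 3.28% of all genes. The cause of these shifts was not tested. Median-ratio scaling changed nothing by construction.

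Leaving out both GM libraries of 1 number, chosen after seeing the data, left 1 library in each GM group. A lone library was then assumed to vary like the other groups, so counts of called members are not given. Between the GM libraries numbered 1, Cas9M3 differed from Ctrl by 0.64 for Mmp2, 2.48 for Timp3 and -1.32 for Mmp3 on the log2 scale. Between those numbered 2, the differences were 1.51, 2.01 and 2.62. With a replicate block, 6 members were called at day 3 and 6 at day 5 against day 0, beside 49.6% and 27.5% of all genes. The block changed no other count by over 1.5 times, with 0 called in every cell comparison. Over all genes the block gave 505 calls in place of 274 for Cas9M3 against Ctrl in DM3, 411 in place of 158 for Ctrl DM3 against GM and 9 in place of 4 for Cas9M3 DM3 against GM.

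Leaving out 1 library at a time gave 0 to 1 called members at day 1, 3 to 7 at day 3, 0 to 6 at day 5 and 0 at day 10 against day 0. It gave 1 to 4 at day 3 against day 1, 0 to 1 at day 5 against day 3 and 1 to 5 at day 10 against day 3. In cells it gave 0 to 2 for Ctrl DM3 against GM, 0 to 1 for Cas9M3 DM3 against GM, 0 for Cas9M3 against Ctrl in GM, 0 to 3 in DM3 and 0 for the difference. At day 3 against day 0 the 3 came without the first day 0 library or without either day 3 library. The 1 at day 3 against day 1 came without the second day 3 library, and the 1 at day 10 against day 3 without the first. The 3 in DM3 came without either Ctrl GM library. At depths where 1 read on 1 kb is worth up to 0.104 FPKM, Mmp8 in muscle (1 to 28 reads), Mmp3 at day 0 (7 and 6 reads) and Mmp9 in cells (0 to 22 reads) rest on few reads.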

Other observations

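For each member whose mean reached 1 FPKM in some group, the 2 other genes with the most similar levels were listed, as a description over libraries that share groups, depth and cell makeup. In muscle (10 libraries) Mmp2 was nearest to Islr (Pearson r = 0.991) and Pamr1 (0.983), Mmp14 to Arhgef40 (0.997) and Marcks (0.994), Timp2 to Capn6 (0.988) and Ccdc8 (0.988), and Timp1 to Coq8b (0.969) and Kcnn4 (0.967). Mmp19 was nearest to Tusc3 (0.974), which was also the second nearest gene of Mmp3 (0.896). Among the members themselves, Mmp14 and Timp2 had r = 0.950 and Mmp3 and Mmp19 had r = 0.911 in muscle.

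In cells (8 libraries) Mmp2 was nearest to Ecrg4 (0.986) and Avpr1a (0.986), Mmp14 to Pdia4 (0.984) and Cdh11 (0.970), Mmp3 to Ankrd42 (0.987), and Timp2 to Kctd10 (0.985). Timp1 was nearest to Mrpl45 (0.995). None of the nearest genes of a member in muscle was among its nearest genes in cells.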
